A study of Homo sapiens with 6 samples.

Results

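The Krüppel-like factors (KLFs) were examined at the mRNA level in BxPC-3, an established human pancreatic cancer cell line. The family was taken by gene symbol as KLF3, KLF4, KLF5, KLF6, KLF7, KLF9, KLF10, KLF11, KLF13 and KLF16, which are 10 of the 26255 genes in the deposited tables. Poly(A) RNA was sequenced in 3 groups of 2 libraries each at 36 h. Parent cells received no treatment, NC-1 cells were transfected with a negative control RNA, and miR-4711-5p cells were transfected with a duplex of the human microRNA miR-4711-5p. NC-1 was matched by its name to the control duplex that the study's methods describe. All 3 groups are the same line, so differences between cell lines were not covered. No label says that the 2 libraries of a group came from separate cultures, and the p-values therefore measure the spread between libraries, which may be technical. An mRNA library does not report the transfected microRNA itself, so its level gave no check of the labels.

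KLFs are transcription factors that bind GC-rich and CACCC sequences in promoters and enhancers through zinc fingers at the carboxyl end of the protein. The fingers are much alike between members, while the remaining sequence differs and decides which partners are recruited. KLF4, KLF5, KLF6 and KLF7 are mostly described as activators, KLF3 as a repressor that recruits CtBP proteins, and KLF9, KLF10, KLF11, KLF13 and KLF16 as repressors that recruit SIN3A. KLF5 is known from proliferating epithelial cells, and in the study it was followed as mRNA and as protein, both reported lower with miR-4711-5p. The question here was how its paralogues stood in the same libraries.

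A microRNA guides a silencing complex to mRNAs that pair with its seed, bases 2 to 8. The mature sequence of miR-4711-5p, from RefSeq, is shown 5′ to 3′ with the seed in capitals because every site below is defined by it.
hsa-miR-4711-5p: uGCAUCAGgccagaagacaugag
Sites were searched as the 8mer CTGATGCA, the 7mer-m8 CTGATGC and the 7mer-A1 TGATGCA in GENCODE v44 on GRCh37 (the build the authors call hg19), taking the longest annotated 3′ UTR per gene. In this annotation 4 of the 10 KLF genes held at least 1 such match, with 3 in KLF5, 2 in KLF13 and 1 each in KLF3 and KLF4. Among the 11180 tested genes with an annotated 3′ UTR the share with a match was 18.4%, the share with 2 or more was 3.54% and the share with 3 or more was 0.707%. KLF 3′ UTRs were longer than most, with a median of 2750.5 nt against 1494.5 nt for the tested genes, and 8 of the 10 lay above that median. None of these longest KLF 3′ UTRs held an 8mer. When any annotated 3′ UTR was searched in place of the longest, 5 KLF genes had a match, KLF6 being added, against 20.5% of the tested genes.

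The 7 matches are printed below as the sense strand of the mRNA, with the matched bases in capitals. They are shown because they set the 4 genes apart from the other 6 in the longest annotated 3′ UTRs.
KLF5 first match (7mer-A1, chr13:73650956-73650962, plus strand): tgttgcatttaTGATGCAgtttcaagtac
KLF5 second match (7mer-A1, chr13:73650990-73650996, plus strand): cgttgaattgaTGATGCAgttttcatata
KLF5 last match (7mer-m8, chr13:73651225-73651231, plus strand): gtaatgtgatgCTGATGCtgttaaccaaa
KLF13 first match (7mer-A1, chr15:31664588-31664594, plus strand): gagagagaactTGATGCAaagtccacgaa
KLF13 second match (7mer-A1, chr15:31666164-31666170, plus strand): agtacctatttTGATGCAaaggaacggcc
KLF3 match (7mer-A1, chr4:38701216-38701222, plus strand): tctcatggaatTGATGCAtttgctgtggc
KLF4 match (7mer-A1, chr9:110247667-110247673, minus strand): gaattgtgtatTGATGCAatataagcata
The first pair of KLF5 matches start 34 nt apart, and the first and the last 269 nt apart. All 3 KLF5 matches and the KLF4 match lie in the 3′ UTRs of 2 of 2 annotated coding transcripts. The first KLF13 match is also in 2 of 2, whereas the second KLF13 match and the KLF3 match are in 1 of 2, so which of the latter the cells' transcripts carried is not known from values per gene. KLF10 held a 7mer-m8 match in its coding sequence and none in its 3′ UTR. A match is a stretch of letters and was not tested as a binding site.

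**Figure D1:**
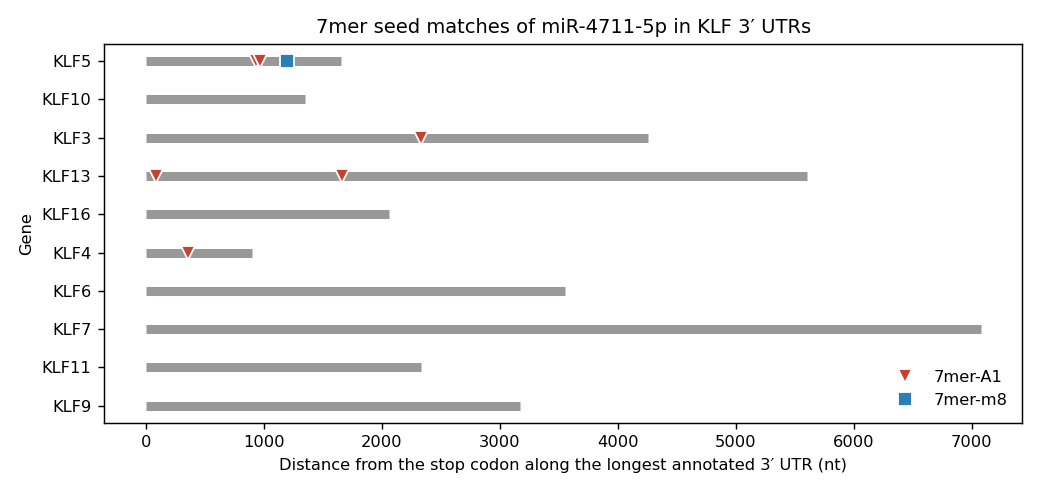
Matches to the miR-4711-5p seed along the longest annotated 3′ UTR of each of 10 KLF genes, drawn to scale in nt from the stop codon; triangles mark 7mer-A1 and squares 7mer-m8 matches. KLF5 carries 3 matches in 1655 nt, KLF13 2 in 5600 nt, and KLF7, with the longest 3′ UTR of 7076 nt, carries none.

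The values are FPKM, fragments scaled by the length of a gene and by a factor for each library, which allows levels of different genes to be set side by side. Total FPKM was 550772 and 543074 in the Parent, 515688 and 515348 in the NC-1, and 493145 and 499659 in the miR-4711-5p libraries. Genes above 0 numbered 16685 and 16597, 16605 and 16808, and 17146 and 17305 in the same order. Reads per library are unknown, and the steps between low values put the relative depth at 0.751 to 1.21 times that of the first Parent library. The depth was highest in the miR-4711-5p libraries, at 1.08 and 1.21. In each of these measures the miR-4711-5p libraries lay outside the range of the controls, and the effect of depth was not tested. Epithelial keratins were high in all 6 libraries, with KRT7 at 1562 to 1842 FPKM. The epithelial marker CDH1 averaged 115 FPKM in Parent and 110 FPKM in NC-1 libraries, against 29.6 FPKM in miR-4711-5p libraries. KRT19 averaged 1629, 1274 and 901 FPKM in these groups, while KRT18 and EPCAM were highest with miR-4711-5p. The longest 3′ UTR of CDH1 holds 1 8mer, 1 7mer-m8 and 1 7mer-A1 match, and its coding sequence holds 3 matches. Those of KRT19, KRT18 and EPCAM hold none in the longest 3′ UTR. The cause of the CDH1 difference was not tested. SMAD4, a gene that BxPC-3 is known to lack, was listed at 0 in all 6. Of the 13 markers of leukocytes, fibroblasts, endothelium, acinar and islet cells, TYROBP, CELA3A, INS and GCG were listed at 0 in every library, and 3 passed the filter described next. Those were COL1A1 at 1.24 to 2.35 FPKM, CDH5 at 0.469 to 3.16 FPKM and PRSS1 at 0.684 to 5.1 FPKM. CDH5 was highest in the NC-1 libraries and PRSS1 in the miR-4711-5p libraries, and their part in the results was not tested. In bulk RNA, fewer cells that express a gene and less of its mRNA per cell cannot be told apart.

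Changes were tested with limma on log2(FPKM + 1), a scale that understates the change of low genes, for the 12040 genes whose average over the 6 libraries reached 1 FPKM. P-values were adjusted by Benjamini-Hochberg over all of these genes, and a gene was called at an adjusted p under 0.05. Of the 10 KLF genes, 9 were tested, and KLF9 stayed below the filter. Both miR-4711-5p comparisons use the same miR-4711-5p libraries, and the Parent and NC-1 libraries each enter 2 of the 3 comparisons.

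KLF5 was by far the most abundant KLF mRNA of Parent cells, and it was lower with miR-4711-5p. In Parent cells the means ran from 119 ± 7.14 FPKM (SD, n = 2) for KLF5 through 35.3 ± 0.805 FPKM for KLF10, 21.7 ± 0.909 FPKM for KLF3, 21.5 ± 1.14 FPKM for KLF13 and 18.04 ± 1.94 FPKM for KLF16. Below these came KLF4 at 9.96 ± 0.570 FPKM, KLF6 at 8.18 ± 0.110 FPKM, KLF7 at 4.47 ± 0.101 FPKM and KLF11 at 1.83 ± 0.113 FPKM. KLF9 was the lowest at 0.238 FPKM. The ranges of KLF3 and KLF13 overlapped, and no other neighbours in this order did. In NC-1 cells KLF6 and KLF4 changed places with overlapping ranges, and the remaining order was kept. With miR-4711-5p, KLF13 moved from place 4 to place 7, below KLF16, KLF6 and KLF4, and no neighbours overlapped.

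**Figure D2:**
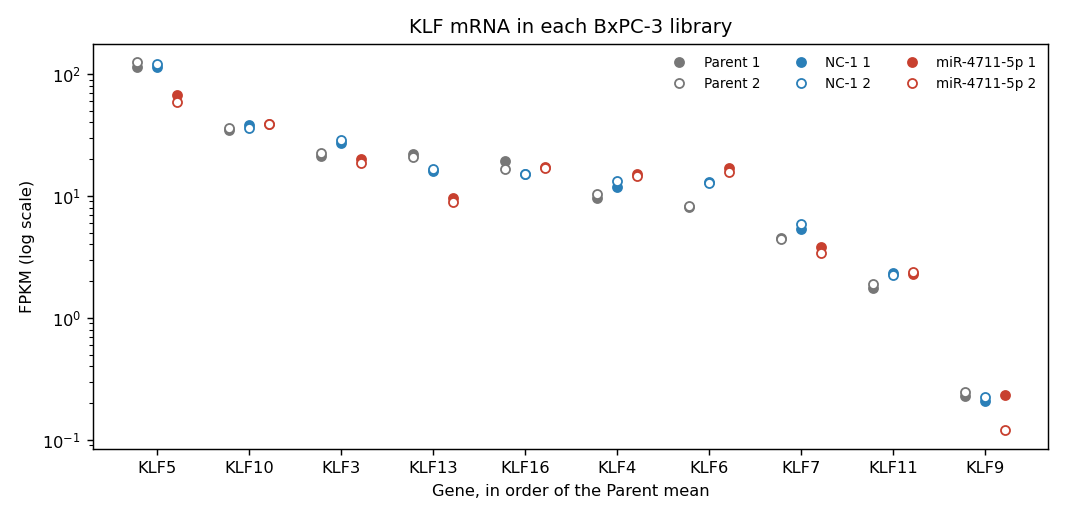
FPKM (log axis) of 10 KLF genes in each BxPC-3 library, ordered by the Parent mean; filled circles are replicate 1 and open circles replicate 2. KLF5 was the highest in every library, at 59.2 to 124 FPKM, and KLF13 and KLF6 show the largest steps across the groups besides KLF5.

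As a share of the summed FPKM of the 10 genes, KLF5 made up 48.5% and 50.8% in the Parent libraries, 47.1% and 47.9% in the NC-1 libraries, and 35.0% and 33.1% in the miR-4711-5p libraries. The sum itself was 236 and 245 FPKM in Parent cells, 243 and 251 FPKM in NC-1 cells, and 191 and 179 FPKM with miR-4711-5p. Without KLF5 it was 122 and 121 FPKM, 129 and 131 FPKM, and 124 and 120.0 FPKM. The miR-4711-5p values of this remainder lie on either side of the Parent values and below both NC-1 values. Among the other genes, shares of the sum of all 10, KLF5 included, also shifted. The mean share of KLF6 went from 3.40% in Parent cells to 5.19% in NC-1 and 8.83% in miR-4711-5p cells, and that of KLF4 from 4.14% to 5.07% and 8.06%. The share of KLF13 went from 8.93% to 6.55% and 4.99%. KLF10, the second most abundant, held 14.7%, 15.0% and 21.1% in the 3 groups. Shares add to 100%, so a lower share of KLF5 raises the others by construction.

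**Figure D3:**
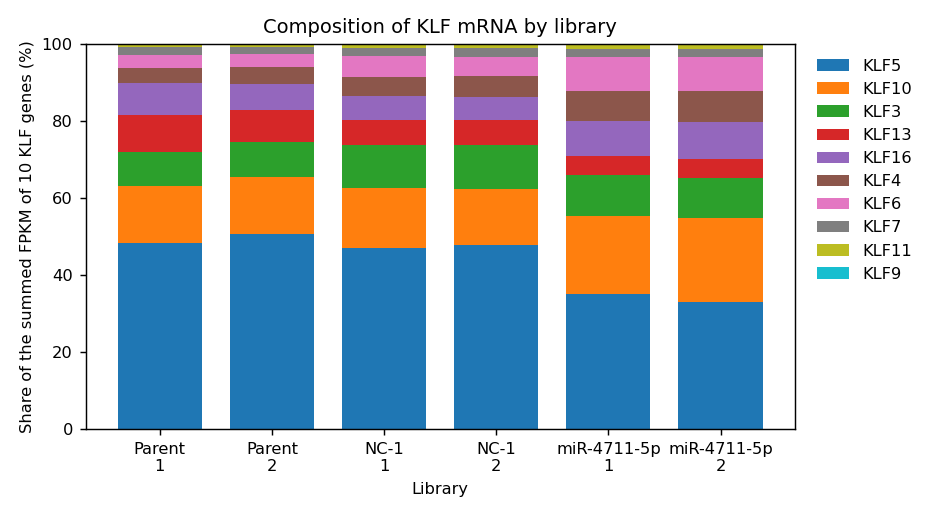
Share of the summed FPKM of 10 KLF genes (percent) taken by each gene, 1 bar per library. The KLF5 segment covers 47.1% to 50.8% in the 4 control libraries and 33.1% to 35.0% in the 2 miR-4711-5p libraries.

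Against Parent, 5 of the 9 tested KLF genes were called, 3 lower and 2 higher, where 43.4% of all tested genes were called (24.7% lower and 18.7% higher). Against NC-1, 6 of 9 were called, 4 lower and 2 higher, beside 39.6% of all tested genes (21.2% lower and 18.4% higher). The calls over all genes depended on single libraries, with 3164 in place of 5230 against Parent without the first miR-4711-5p library, and 2815 or 2991 in place of 4763 against NC-1 without the first or the second. KLF5, KLF13 and KLF7 were lower in both comparisons and KLF4 and KLF6 higher in both, while 15.4% of all tested genes were lower in both and 10% higher in both. The median log2 change of the 9 genes was -0.07 against Parent and 0.02 against NC-1, and that of all tested genes -0.01 and 0.00. Both miR-4711-5p libraries lay below all 4 control libraries for KLF3, KLF5, KLF7 and KLF13, 4 of the 9, beside 26.3% of all tested genes. They lay above all 4 for KLF4, KLF6 and KLF10, 3 of the 9, beside 23.8%. The tested KLF genes thus moved in both directions.

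Among the activators, KLF5 stood at 114 and 124 FPKM in the Parent libraries, at 115 and 120 FPKM in the NC-1 libraries, and at 66.8 and 59.2 FPKM in the miR-4711-5p libraries. Both miR-4711-5p values lay below all 4 control values, and the 2 control groups overlapped. The ratio of means was 1.89 for Parent over miR-4711-5p and 1.86 for NC-1 over miR-4711-5p. KLF5 fell by 0.91 on the log2 scale against Parent (SE 0.07, adjusted p = 8.46e-05 by limma), and its change against NC-1 was -0.89 (SE 0.07, adjusted p = 0.000116). Between NC-1 and Parent the difference was -0.02, with a 95% interval from -0.19 to 0.14 and an adjusted p of 0.836.

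KLF6, a widely expressed factor that responds early to injury and growth signals, moved in the opposite direction to KLF5. Its values were 8.10 and 8.25 FPKM in Parent cells, 12.9 and 12.8 FPKM in NC-1 cells, and 16.8 and 15.8 FPKM with miR-4711-5p. The 3 groups did not overlap, and NC-1 lay between the others. KLF6 rose by 0.92 on the log2 scale against Parent (SE 0.06, adjusted p = 2.95e-05 by limma), a ratio of 1.998. Of this, 0.59 was already seen between NC-1 and Parent (SE 0.06, adjusted p = 0.00115), and the step from NC-1 to miR-4711-5p was 0.32 (SE 0.06, adjusted p = 0.00369).

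KLF4, which promotes epithelial differentiation and exit from the cell cycle, had the same order of groups. It was measured at 9.55 and 10.4 FPKM in Parent cells, 11.9 and 13.1 FPKM in NC-1 cells, and 15.1 and 14.7 FPKM in miR-4711-5p cells, without overlap between groups. The log2 change was 0.54 against Parent (SE 0.07, adjusted p = 0.000854 by limma), 0.23 against NC-1 (SE 0.07, adjusted p = 0.0311) and 0.30 for NC-1 against Parent (SE 0.07, adjusted p = 0.0182). The 3′ UTR of KLF4 carries 1 of the seed matches printed above. The call against NC-1 was lost with no filter on low values (adjusted p = 0.0667), without the first NC-1 library (adjusted p = 0.158), without the first miR-4711-5p library (adjusted p = 0.156) and without the second (adjusted p = 0.1001), and that of NC-1 against Parent without the first Parent library (adjusted p = 0.0995) and without the second NC-1 library (adjusted p = 0.0910).

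KLF7, an activator best known from neuronal development, was a low member at 4.54 and 4.40 FPKM in Parent, 5.37 and 5.91 FPKM in NC-1 and 3.79 and 3.39 FPKM in miR-4711-5p libraries. It was higher in NC-1 and lower in miR-4711-5p than in Parent cells, with no overlap. Against NC-1 KLF7 fell by 0.53 on the log2 scale (SE 0.08, adjusted p = 0.00229 by limma). Against Parent KLF7 fell by 0.26 on the log2 scale (SE 0.08, adjusted p = 0.0411), a call that was lost when any of the 4 libraries compared was left out (adjusted p from 0.0696 to 0.197) and with the replicate number as a block (adjusted p = 0.0608). The rise of 0.28 from Parent to NC-1 (SE 0.08, adjusted p = 0.0436) was lost without any 1 of the 6 libraries, with adjusted p from 0.0643 to 0.175. The call of KLF7 against Parent was also lost with no filter on low values (adjusted p = 0.0948 by limma) and with 2 groups only (0.0524). Equal total FPKM (0.197) and median-of-ratios factors over genes of at least 10 FPKM (0.0924) lost it too. KLF7 has no seed match in any annotated 3′ UTR.

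KLF3, the CtBP-binding repressor, had 21.0 and 22.3 FPKM in Parent cells, 27.1 and 28.7 FPKM in NC-1 cells, and 20.2 and 18.7 FPKM in miR-4711-5p cells. The NC-1 libraries stood apart as the highest, and the miR-4711-5p values lay just under the Parent values. KLF3 therefore fell by 0.50 on the log2 scale against NC-1 (SE 0.06, adjusted p = 0.000884 by limma), and the difference of -0.15 against Parent did not pass (95% interval from -0.30 to -0.0048, adjusted p = 0.0880). KLF3 rose by 0.35 from Parent to NC-1 (SE 0.06, adjusted p = 0.00832), which was lost without the first Parent library (adjusted p = 0.0577). The antisense gene KLF3-AS1 was at most 0.207 FPKM. The strand setting used for counting is not given in the sources used here, so reads of both genes cannot be told apart.

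Of the SIN3A-binding repressors, KLF13 had the largest decrease of the family against Parent. It stood at 22.3 and 20.7 FPKM in Parent cells, 15.9 and 16.5 FPKM in NC-1 cells, and 9.59 and 8.90 FPKM in miR-4711-5p cells. The groups did not overlap, and NC-1 lay between Parent and miR-4711-5p. KLF13 fell by 1.13 on the log2 scale against Parent (SE 0.06, adjusted p = 2.07e-05 by limma), with a ratio of 2.32 for Parent over miR-4711-5p. Against NC-1 KLF13 fell by 0.75 on the log2 scale (SE 0.06, adjusted p = 0.000159), a ratio of 1.75. In contrast to KLF5, KLF13 was also lower in NC-1 than in Parent cells, where it fell by 0.38 on the log2 scale (SE 0.06, adjusted p = 0.00634).

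KLF10 and KLF11 are known as early genes induced by transforming growth factor beta, and neither was called in any comparison as fitted here. KLF10 stood at 34.7 and 35.8 FPKM in Parent, 38.2 and 36.1 FPKM in NC-1 and 38.8 and 39.1 FPKM in miR-4711-5p libraries. Both miR-4711-5p values were above all 4 controls, yet the difference of 0.14 against Parent did not pass (95% interval from 0.02 to 0.25, adjusted p = 0.0538 by limma). It passed without either NC-1 library, which share in the estimate of the spread, with adjusted p = 0.0498 without the first and 0.0495 without the second. The difference against Parent also passed with 2 groups only (adjusted p = 0.0488 by limma) and with a mean of at least 5 FPKM (0.0483). So it did under quantile normalization (0.0113), equal total FPKM (0.00418) and median-of-ratios factors over genes of at least 10 FPKM (0.0124). Against NC-1 the difference was 0.07 (95% interval from -0.05 to 0.18, adjusted p = 0.317). KLF11 was at 1.75 and 1.91 FPKM in Parent, 2.33 and 2.23 FPKM in NC-1 and 2.29 and 2.37 FPKM in miR-4711-5p libraries. Its NC-1 and miR-4711-5p values overlapped (log2 difference 0.02, 95% interval from -0.20 to 0.24, adjusted p = 0.870), and against Parent it differed by 0.24 (adjusted p = 0.0798). Moderation without a trend called KLF11 against Parent (adjusted p = 0.0194) and between NC-1 and Parent (adjusted p = 0.0435).

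KLF16, a repressor linked to metabolic genes, had 19.4 and 16.7 FPKM in Parent, 15.0 and 15.0 FPKM in NC-1 and 17.2 and 17.0 FPKM in miR-4711-5p libraries. The miR-4711-5p values lay between the Parent values and above NC-1. KLF16 was not called against Parent (-0.07, 95% interval from -0.24 to 0.10, adjusted p = 0.466 by limma) or against NC-1 (0.18, adjusted p = 0.0940), although the second passed without the first Parent library (adjusted p = 0.0340) or the second (adjusted p = 0.0330). From Parent to NC-1 KLF16 fell by 0.25 on the log2 scale (adjusted p = 0.0443), and this was lost without each of 5 libraries in turn, all but the second Parent library, with adjusted p from 0.0863 to 0.156. KLF9, a hormone-responsive repressor, was between 0.119 and 0.248 FPKM in all 6 libraries and was not tested.

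**Figure D4:**
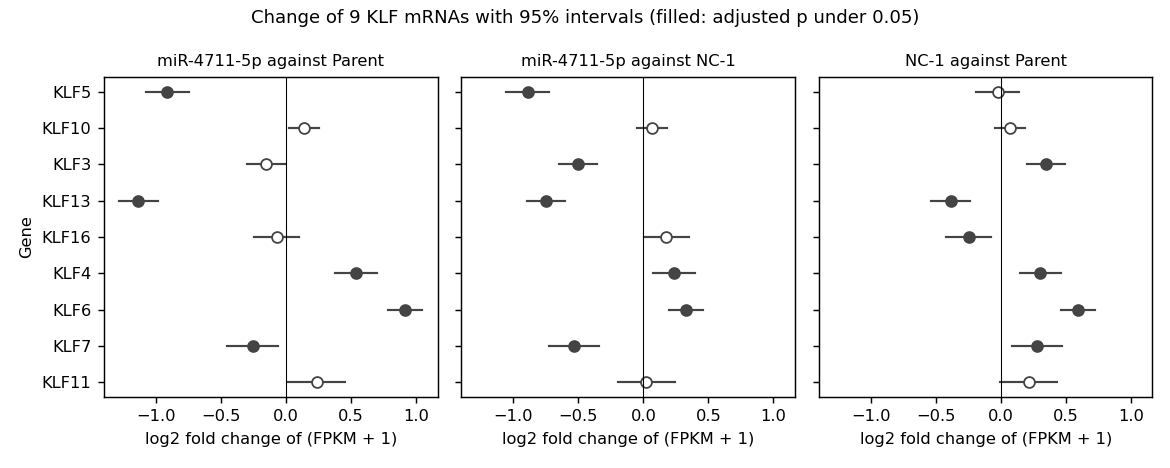
Log2 fold change of (FPKM + 1) with 95% intervals for 9 KLF genes in the 3 comparisons; filled points have an adjusted p under 0.05 by limma. KLF5 and KLF13 lie left of 0 in both miR-4711-5p comparisons, and KLF6 and KLF4 lie right of 0 in all 3.

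The NC-1 transfection itself was accompanied by differences in the family. Between NC-1 and Parent, 6 of 9 KLF genes were called, KLF3, KLF4, KLF6 and KLF7 higher and KLF13 and KLF16 lower, where 27.2% of all tested genes were called (12.1% higher and 15.1% lower). The count was 2 without the first Parent library and 3 without the second NC-1 library, where the calls over all genes went from 3279 to 1355 and 1944. They were 1591 without the first NC-1 library and 2154 without the second Parent library. KLF5 was not among the 6. KLF6 and KLF13 were called in every alternative tried, with log2 changes from 0.44 to 0.67 for KLF6 and from -0.44 to -0.30 for KLF13.

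To set KLF5 beside each paralogue directly, the difference between their log2 changes was tested. Against Parent the change of KLF5 was lower than that of 7 of 8 paralogues, where 96.0% of all tested genes differed from KLF5. The gap was largest to KLF6, at -1.83 (95% interval from -2.04 to -1.62, adjusted p = 1.47e-05), followed by KLF4 at -1.45 (from -1.68 to -1.22). The smallest of the 7 was KLF7, at -0.66 (from -0.91 to -0.40, adjusted p = 0.000583). KLF13 was the exception: its decrease was the larger by 0.22, with an interval from -0.00065 to 0.44 and an adjusted p of 0.0526. Without the second Parent library this difference was 0.33 and passed (adjusted p = 0.0287).

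Against NC-1 the same 7 paralogues differed from KLF5, beside 95.7% of all tested genes. The gap to KLF6 was -1.21 and that to KLF4 -1.12, and the gaps to KLF3 (-0.39, 95% interval from -0.61 to -0.17, adjusted p = 0.00444) and KLF7 (-0.35, from -0.61 to -0.10, adjusted p = 0.0139) were the smallest. The KLF7 difference did not pass without the first NC-1 library (adjusted p = 0.0525). For KLF13 the difference was -0.14 with an interval from -0.36 to 0.08 (adjusted p = 0.179), so here KLF5 had the larger decrease and the data left room for either order. In FPKM, KLF5 mRNA exceeded KLF6 mRNA by a mean ratio of 14.6 in Parent cells, 9.15 in NC-1 cells and 3.85 in miR-4711-5p cells. The ratio to KLF4 was 12.0, 9.38 and 4.23, and that to KLF10 was 3.39, 3.17 and 1.62. The ratio to KLF13 was 5.58, 7.25 and 6.81.

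Seed matches and changes can be read side by side for the 4 genes that carry a match in the longest 3′ UTR. KLF5 with 3 matches and KLF13 with 2 were lower in both miR-4711-5p comparisons. KLF3 with 1 match was lower against NC-1 only, and KLF4 with 1 match was higher in both. Of the genes without a match in the longest 3′ UTR, KLF7 was lower in both, KLF6 higher in both, and KLF10, KLF11 and KLF16 were not called. These 9 genes are too few for a statement about sites in general.

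By the root mean square distance of the log2 profiles over the 6 libraries, centred per gene, the genes most like KLF5 among 6647 genes of at least 10 FPKM were PERP (0.07), DUSP11 (0.07), PORCN (0.08), SLC2A1 (0.08) and CDC25B (0.08). PERP, a desmosomal membrane protein, had 180.0 and 184 FPKM in Parent, 179 and 178 FPKM in NC-1 and 96.9 and 98.5 FPKM in miR-4711-5p libraries. Like KLF5, it was level between the controls and lower with miR-4711-5p. The nearest paralogue was KLF13 in place 175, at a distance of 0.16. KLF3 came in place 1118, KLF16 in 4368, KLF10 in 4562, KLF4 in 6225 and KLF6 in 6480. KLF6 was thus among the genes least like KLF5 in these libraries.

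Other KLF genes were scarce. The 8 further symbols that begin with KLF, KLF3-AS1 included, did not exceed 1.996 FPKM in any library, and KLF1 and KLF17 were listed at 0. KLF2, KLF8 and KLF12 were tested, and 1 of them was called in 1 comparison. KLF8, like KLF3 a CtBP-binding repressor, fell by 0.50 on the log2 scale against NC-1 (adjusted p = 0.0144 by limma) and stood at 1.69 and 1.61 FPKM in NC-1 and at 0.942 and 0.811 FPKM in miR-4711-5p libraries. KLF8 holds 2 seed matches in its longest 3′ UTR, and KLF12, not called, holds 1. The related SP factors bind similar GC-rich sequences, and 5 of 9 were tested. SP1 was lower in both comparisons, at 26.0 and 25.3 FPKM in Parent, 27.1 and 27.7 FPKM in NC-1 and 20.4 and 20.0 FPKM in miR-4711-5p libraries. It fell by 0.33 on the log2 scale against Parent (adjusted p = 0.00157) and dropped by 0.42 on that scale against NC-1 (adjusted p = 0.000593). SP1 holds 2 7mer-m8 matches in its longest 3′ UTR and 1 in its coding sequence. SP2, SP3 and SP4 were not called in any comparison, and of these SP2 holds 1 match in its longest 3′ UTR. SP6 was higher than in Parent both in NC-1 (0.53, adjusted p = 0.00790) and in miR-4711-5p cells (0.54, adjusted p = 0.00361), and the latter groups differed by 0.00 (adjusted p = 0.990).

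Of 11 co-regulators that bind KLF proteins, 4 were lower and 2 higher against Parent, and 3 were lower and 1 higher against NC-1, where the shares of all tested genes were 24.7% lower and 18.7% higher, and 21.2% lower and 18.4% higher. The counts lie near these shares, and the median log2 change of the list was -0.01 and 0.04. CTBP2, the co-repressor recruited by KLF3 and KLF8, had 48.3 and 49.6 FPKM in Parent, 41.8 and 41.1 FPKM in NC-1 and 24.7 and 23.8 FPKM in miR-4711-5p libraries. CTBP2 fell by 0.98 on the log2 scale against Parent (adjusted p = 1.06e-05 by limma) and its change against NC-1 was -0.75 (adjusted p = 3.65e-05). Its paralogue CTBP1 ranged from 42.3 to 47.1 FPKM and was not called. HDAC3, a histone deacetylase, changed by -0.40 against Parent (adjusted p = 0.000398) and -0.29 against NC-1 (adjusted p = 0.00200). EP300, an acetyltransferase that acts on KLF5, was also lower in both, though by little and near the threshold. Its change was -0.18 against Parent (adjusted p = 0.0480 by limma) and -0.20 against NC-1 (adjusted p = 0.0370). SIN3A, the partner of the KLF13 group, was not called. FHL3, a LIM protein that binds KLF3, was higher in both, by 0.28 (adjusted p = 0.0171) and 0.34 (adjusted p = 0.00847). CTBP2 carries 2 seed matches in its longest 3′ UTR. KAT2B, SIN3A and SIN3B carry 1 each, of which SIN3A and SIN3B were not called and KAT2B was higher against Parent (0.50, adjusted p = 0.00106) and not called against NC-1. HDAC3 holds an 8mer in its coding sequence, and HDAC1, HDAC2 and EP300 also hold coding matches.

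Enzymes that add ubiquitin to KLF5 or remove it were a short list of 6, of which 5 were tested. None was higher, while 2 were lower against Parent and 3 against NC-1, beside 24.7% and 21.2% of all tested genes. The list median was -0.19 and -0.21, against -0.01 and 0.00 for all tested genes. BAP1, a deubiquitinase that stabilises KLF5, had 39.2 and 37.01 FPKM in Parent, 34.3 and 32.8 FPKM in NC-1 and 25.0 FPKM in both miR-4711-5p libraries. Its log2 change was -0.59 against Parent (adjusted p = 0.000154 by limma) and -0.41 against NC-1 (adjusted p = 0.000868). WWP1, a ligase that marks KLF5 for degradation, changed by -0.28 (adjusted p = 0.00967) and -0.44 (adjusted p = 0.00152). An mRNA of each kind was therefore lower, and KLF5 protein was not measured in these files. BAP1 and WWP1 hold 1 seed match each in the longest 3′ UTR, and the other tested genes of this list hold none there.

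Of 10 genes reported elsewhere as KLF5 targets, 5 were lower and 1 higher against Parent, and 5 were lower and 4 higher against NC-1. Of all tested genes 43.4% were called against Parent and 39.6% against NC-1. The same 5 were lower in both comparisons, namely FGFBP1, PTGES, IGFL1, BIRC5 and CCND1, beside 15.4% of all tested genes, and none was higher in both. The 4 higher against NC-1 were EGFR (0.31), MYC (0.29), PDGFA (0.25) and TNFAIP2 (0.20), none of which was called against Parent. The median log2 change of the 10 genes was -0.20 and -0.15, against -0.01 and 0.00 for all tested genes. FGFBP1, a carrier that releases fibroblast growth factors, had 203 and 209 FPKM in Parent, 257 and 234 FPKM in NC-1 and 95.1 and 98.4 FPKM in miR-4711-5p libraries. It changed by -1.08 against Parent (adjusted p = 1.31e-05 by limma) and by -1.33 against NC-1 (adjusted p = 8.06e-06). PTGES, a prostaglandin E synthase, had 76.6 and 72.5 FPKM in Parent, 80.8 and 81.0 FPKM in NC-1 and 37.2 and 38.0 FPKM in miR-4711-5p libraries. The changes of PTGES were -0.97 (adjusted p = 1.08e-05) and -1.09 (adjusted p = 8.79e-06). FGFBP1 holds no seed match in its 3′ UTR, whereas PTGES holds a 7mer-m8 at position 8 of 1262 nt. IGFL1 and EGFR hold 1 match each in the coding sequence and none in the longest 3′ UTR. TNFAIP2 holds 2 7mer-m8 matches and was not lower, with a change of 0.03 against Parent (adjusted p = 0.713) and a rise of 0.20 against NC-1 (adjusted p = 0.0228). CDKN1A, the cell cycle inhibitor, was the gene higher against Parent (0.34, adjusted p = 0.000717), and it was also higher in NC-1 than in Parent (0.44, adjusted p = 0.00119).

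**Figure D5:**
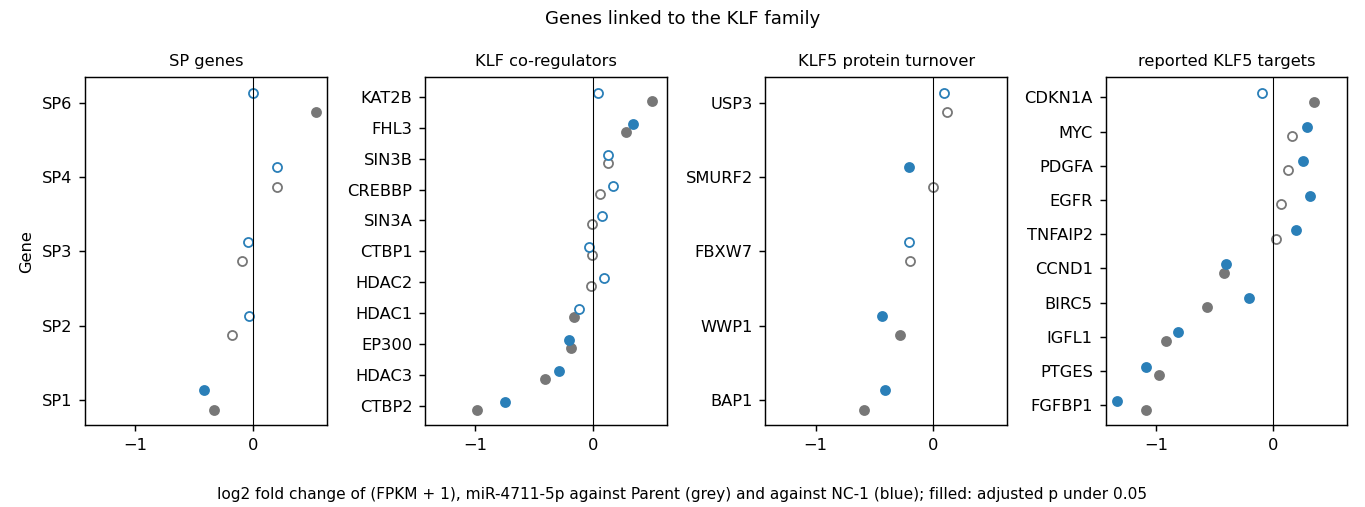
Log2 fold change of (FPKM + 1) with miR-4711-5p against Parent (grey) and against NC-1 (blue) for the tested SP genes, KLF co-regulators, KLF5 turnover enzymes and reported KLF5 targets; filled points have an adjusted p under 0.05 by limma. FGFBP1, PTGES, IGFL1 and CTBP2 lie farthest to the left, and 5 of the 10 reported targets are lower in both comparisons. Another 4 of the reported targets are higher against NC-1.

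RefSeq promoters on GRCh38.p14, the 300 bases around the annotated start, were matched for 8 of the 10 KLF genes. The GC box GGGCGG, searched on both strands, was found in 5 of the 8, KLF4, KLF6, KLF11, KLF13 and KLF16, beside 44.6% of 27305 promoters. The CACCC box CCACCC was found in KLF7 and KLF13, beside 33.4% of promoters. KLF5 and KLF9 held neither in this window. Genes with a GC box were therefore found among those that rose, fell or were not called.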

How the data were processed

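The deposited values are FPKM per gene symbol in 6 files, 1 for each library. The authors prepared stranded mRNA libraries, sequenced them single-end, mapped reads to hg19 with TopHat and Bowtie2 and computed FPKM with Cuffnorm. The submitters' processing notes list TopHat2 2.1.1, Bowtie2 2.3.5.1, SAMtools 1.2 and Cufflinks 2.2.1, and the paper's methods list other versions of some of these. These notes also name Cuffdiff, without a version, where the paper names Cuffnorm. The annotation, the strand setting and the normalization option are not given in the sources used here. Median-of-ratios factors computed from the deposited values were 1.006 to 1.007 in all 6 libraries, so the libraries were already level on that measure. FPKM is a relative value and is not a count, so no count model was used, and depth in reads is unknown.

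The 12040 genes that averaged 1 FPKM or more were fitted on log2(FPKM + 1) with limma 3.58.1 (R 4.3.3; lmFit with group means, contrasts.fit and eBayes with a trend, 3 residual and 4.15 prior degrees of freedom), with two-sided p-values adjusted by Benjamini-Hochberg at a threshold of 0.05. The step was tested on simulated data. Differences from KLF5 used the combined moderated standard errors, computed for every other tested gene and adjusted over all of them. An exact test of 2 against 2 libraries cannot go below 0.333 and was not used. The 2 libraries of a group were not copies, since at most 1 gene above 0 had equal values. Tables and figures were made with Python 3.11.15, pandas 2.3.3, numpy 2.4.6 and matplotlib 3.10.9. For 3′ UTRs, 11126 symbols matched GENCODE by name and 669 by an older symbol.

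The KLF genes, the gene lists and the tests were chosen with earlier results of these data known. Of each list, the genes named with values are the 2 largest decreases and the 2 largest increases against Parent among genes called in the same direction in both miR-4711-5p comparisons. KLF8, SP2, SP3, SP4, SP6, CTBP1, EP300, SIN3A, SIN3B, HDAC1, HDAC2, KAT2B, TNFAIP2, EGFR, MYC, PDGFA, CDKN1A, IGFL1, BIRC5 and CCND1 are named in addition, for their role in a count or a seed match. KLF18 and a comparison of protein sequences were not analysed here. Alternatives were pseudocounts of 0.1 and 5, no filter or a mean of at least 5 FPKM, other scalings, other variance models, 2 groups only, the replicate number as a block, and leaving out each library. The deposited values were already level by median-of-ratios factors without a filter on FPKM, so that scaling could hardly change a result.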

Additional observations from a re-analysis of the deposited data

How the results depend on the processing

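KLF5, KLF13 and KLF6 kept their direction and their call in both miR-4711-5p comparisons under every alternative tried, with KLF5 between -0.997 and -0.77 against Parent and between -0.97 and -0.80 against NC-1 on the log2 scale. The number of KLF genes called ranged from 4 to 6 against Parent and from 5 to 7 against NC-1. For NC-1 against Parent it was 6 with all libraries and 2 to 5 when each library was left out. KLF5 changed sign between NC-1 and Parent, without being called, under quantile normalization (0.064), with FPKM scaled to equal totals (0.062) and with median-of-ratios factors over genes of at least 10 FPKM (0.034), and it ranged from -0.083 to 0.038 when each library was left out (0.038 without the second Parent and 0.012 without the first NC-1 library). KLF16 changed sign against Parent without the first Parent library (0.034, in a range from -0.17 to 0.034 over the left-out libraries) and with equal totals (0.062), and KLF11 against NC-1 under quantile normalization (-0.010), none of them called. The cause was not tested.

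Equal totals and the factors over genes of at least 10 FPKM were chosen after seeing the data. Equal totals moved the median of all genes against Parent to 0.11, and relative to that median KLF6 and KLF4 stayed higher and KLF5 and KLF13 lower. The share of calls that were higher against Parent was 69.3% with equal totals and 57.2% with the other factors, in place of 43.1%, and among KLF genes 4 were then higher and 2 lower under each. For NC-1 against Parent these shares were 69.9% and 62.4% in place of 44.4%. Quantile normalization gave 3 higher and 3 lower against Parent, and it called KLF10. KLF11 was called against Parent with equal totals (adjusted p = 0.0250 by limma) and with the factors over genes of at least 10 FPKM (0.0447). With no filter 2165 genes were called between NC-1 and Parent in place of 3279. The difference between KLF5 and KLF13 against Parent also passed with a pseudocount of 0.1 (adjusted p = 0.0222 by limma), a mean of at least 5 FPKM (0.0472), quantile normalization (0.0190) and robust moderation (0.0426), and against NC-1 with a pseudocount of 5 (0.0134), while that between KLF5 and KLF7 against NC-1 was lost with a pseudocount of 0.1 (0.0700).

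Libraries with the same replicate number showed little shared deviation. Their deviations from the group means correlated at 0.06, 0.00 and -0.01 over 12040 genes in the 3 pairs of groups. This cannot show whether same-numbered libraries were prepared together, which the labels do not say. With the replicate number as a block, KLF7 was no longer called against Parent (adjusted p = 0.0608 by limma) or between NC-1 and Parent (adjusted p = 0.0658), and no other call of a KLF gene was lost or gained.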
